A study of Homo sapiens with 4 samples.

Results

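The 36 genes described here are the transcription factor ATF4, its partners and inhibitors, and genes that it is known to drive: amino acid transporters, enzymes of serine, folate, asparagine, cysteine and proline metabolism, and tRNA synthetases. They were chosen by symbol from a fixed list, and all 36 were found among 20137 genes. RNA was sequenced from MDA-MB-231, a human cell line from a triple-negative breast cancer, in 2 libraries labelled AURKA KD (titles shA) and 2 labelled control (titles shC, mock-transfected per the design text). All 4 libraries came from cells kept in Leibovitz's L-15 medium with serum and antibiotics, and AURKA encodes the mitotic kinase Aurora A. The labels give neither the hairpin sequences nor the time after knockdown, nor whether cells were cloned. The replicates are stated to be biological, but not how separate they were, so p-values measure only the spread between these libraries.

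ATF4 is the main effector of the integrated stress response. When an eIF2alpha kinase senses amino acid shortage, misfolded protein in the endoplasmic reticulum, viral RNA or lack of heme, it phosphorylates the initiation factor eIF2. General translation then slows while the ATF4 message is translated more, so ATF4 activity is set largely after transcription and its mRNA level is a partial readout. ATF4 binds with C/EBP partners to composite C/EBP-ATF response elements and switches on genes that import amino acids, make them and load them onto tRNA. DDIT3 (CHOP), TRIB3 and PPP1R15A (GADD34) belong to the feedback and cell death arm of the same response.

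In the tables, whose unit was read from the values as FPKM (fragment counts divided by transcript length and library depth), summed values ran from 718790 to 761448 per library and 11738 to 12177 genes reached 1 FPKM. Estimated depths were 17300000 to 27600000 fragments, as a rough figure. Of the genes that mark the line, VIM was at 1701 to 2068 FPKM and CD44 at 212 to 233 FPKM, while CDH1, ESR1 and PGR stayed at or below 0.271 FPKM. KRT18 (265 to 346 FPKM), ERBB2 (16.5 to 20.2 FPKM) and EPCAM (2.49 to 3.30 FPKM), listed as low or absent in the line, were present. AURKA had 124 and 99.1 FPKM in control cells and 22.3 and 23.7 FPKM after knockdown, a log2 difference of -2.22 ± 0.15 (standard error, limma adjusted p = 0.0819, and 0.000696 with the run as a term). The labels name only a replicate number. The tables of replicates 1 and 2 differ in row order and loci and match within a number, from which separate quantification was inferred, so the number is called the run here. Whether it also marks separate cultures is not stated, and these cannot be told apart. In a list of 20 inflammatory and immediate early genes, 16 were highest in control replicate 1. The list was chosen with earlier results of these data known, and the share of all genes highest in that library was not counted. The count therefore describes this list only. In bulk RNA, fewer cells with a transcript and less of it per cell cannot be told apart. The summed level of the 20 genes was 1488 FPKM in that library against 599 FPKM in control replicate 2 and 698 and 506 FPKM in the knockdown.

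Some promoters of the members hold letters of the element that ATF4 binds. The genes were chosen by symbol, but as ATF4 and its known targets. A share above that of all genes is therefore no independent result. Of 31 members with a RefSeq promoter window (GRCh38.p14, 250 bases before to 50 after the annotated start), 12 hold TGATGNAA, the core letters of the C/EBP-ATF response element, on either strand. That is 38.7% of these members, against 4.46% of all 27305 genes with a window and 3.62% of 35116 windows. By role the letters stand in the windows of 5 tRNA synthetases (AARS, GARS, MARS, NARS and CARS), 3 transporters (SLC3A2, SLC7A1 and SLC1A5), the regulators ATF3 and CEBPG, CHAC1 and ASNS. NUPR1, SLC7A11, PSPH, SHMT2 and PYCR1 had no window in the table. 2 further elements were searched on both strands: TGACGTCA, a full CRE site, was found in 1 member (PPP1R15A, 2.25% of all genes) and GCCACGTG, an E-box, in 1 member (ALDH18A1, 1.87%). The windows below show the match in capitals, in the direction of the gene, so that a reader can compare the flanks.
ASNS (chr7:97872453-97872492, minus strand): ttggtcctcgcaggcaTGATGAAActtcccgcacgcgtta
CHAC1 (chr15:40953246-40953285, plus strand): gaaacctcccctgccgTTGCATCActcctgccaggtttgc
CEBPG (chr19:33374055-33374094, plus strand): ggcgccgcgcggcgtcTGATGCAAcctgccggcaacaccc
ATF3 (chr1:212565200-212565239, plus strand): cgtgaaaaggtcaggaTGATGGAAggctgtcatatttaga
SLC1A5 (chr19:46784888-46784927, minus strand): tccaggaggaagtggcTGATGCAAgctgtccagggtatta
SLC7A1 (chr13:29595658-29595697, minus strand): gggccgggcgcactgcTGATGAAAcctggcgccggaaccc
SLC3A2 (chr11:62881720-62881748, plus strand): taatgtgcaggactccTTACATCAgctcc
AARS (chr16:70289670-70289709, minus strand): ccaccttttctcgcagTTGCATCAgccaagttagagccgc
GARS (chr7:30594829-30594868, plus strand): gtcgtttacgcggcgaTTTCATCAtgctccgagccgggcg
MARS (chr12:57488048-57488087, plus strand): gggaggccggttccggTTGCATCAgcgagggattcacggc
CARS (chr11:3057402-3057441, minus strand): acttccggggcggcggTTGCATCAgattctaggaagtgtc
NARS (chr18:57621799-57621838, minus strand): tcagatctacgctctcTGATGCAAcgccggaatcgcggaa

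In 7 of the 12 windows the variable base is C on the strand that reads TGATG, as in the element of CHAC1. Counted from the annotated start as 0, the first base of the match lies between -209 (CHAC1) and 37 (SLC3A2), with that of ASNS at -68. A match of letters is a description and no evidence that ATF4 was bound in these cells. The 12 members with the letters had a median log2 difference between knockdown and control of 0.13, with 8 above 0. The 18 tested members whose windows lack them had a median of 0.02, with 10 above 0. The 5 members without a window had the highest median of these sets, 0.24, with 4 above 0. Over all genes tested the median was 0.01, with 52.3% above 0.

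Most members differed little between knockdown and control, and the share with a higher mean was somewhat above that of all genes. In all, 35 were tested, since CBS did not reach 1 FPKM in 2 libraries. Of these, 22 (62.9%) had a higher mean in the knockdown, against 52.3% of all 12136 genes tested. Their median log2 difference was 0.17, against 0.01 over all genes. The size rests on single libraries and low genes: it was 0.11 without control replicate 1, 0.07 without knockdown replicate 1, and 0.06 with only the 31 members at 5 FPKM or more in 2 libraries. Taken by run, the members' median was 0.18 (run 1) and 0.11 (run 2). 17 members were higher in both runs (48.6%, against 35.3% of all genes) and 4 lower in both (11.4%, against 31.7%). The knockdown libraries lay above both controls for 11 members (31.4%, against 19.4%) and below both for 3 (8.57%, against 16.6%). The 11 include NUPR1, which reached 1 FPKM only in the knockdown libraries, so its place there was fixed. NUPR1 also stands in the other counts of higher members in this paragraph. CBS, left out by the same filter, was lower in both knockdown libraries (0.105 and 0.115 FPKM) than in both controls (0.172 and 0.280 FPKM). The fit called few of them. In limma without the run 0 of 35 passed, as 0 of all genes did (0%), with 2 members, NUPR1 and PSPH, and 773 genes (6.37%) at an unadjusted p under 0.05. With the run as a term only NUPR1 passed among the members (2.86%, against 3.44% of all genes in either direction and 1.53% called higher). At an unadjusted p under 0.05 with the run there were 11 members, all higher, against 22.1% of all genes in either direction and 11.2% higher. The share with an adjusted call is near the background.

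**Figure D1:**
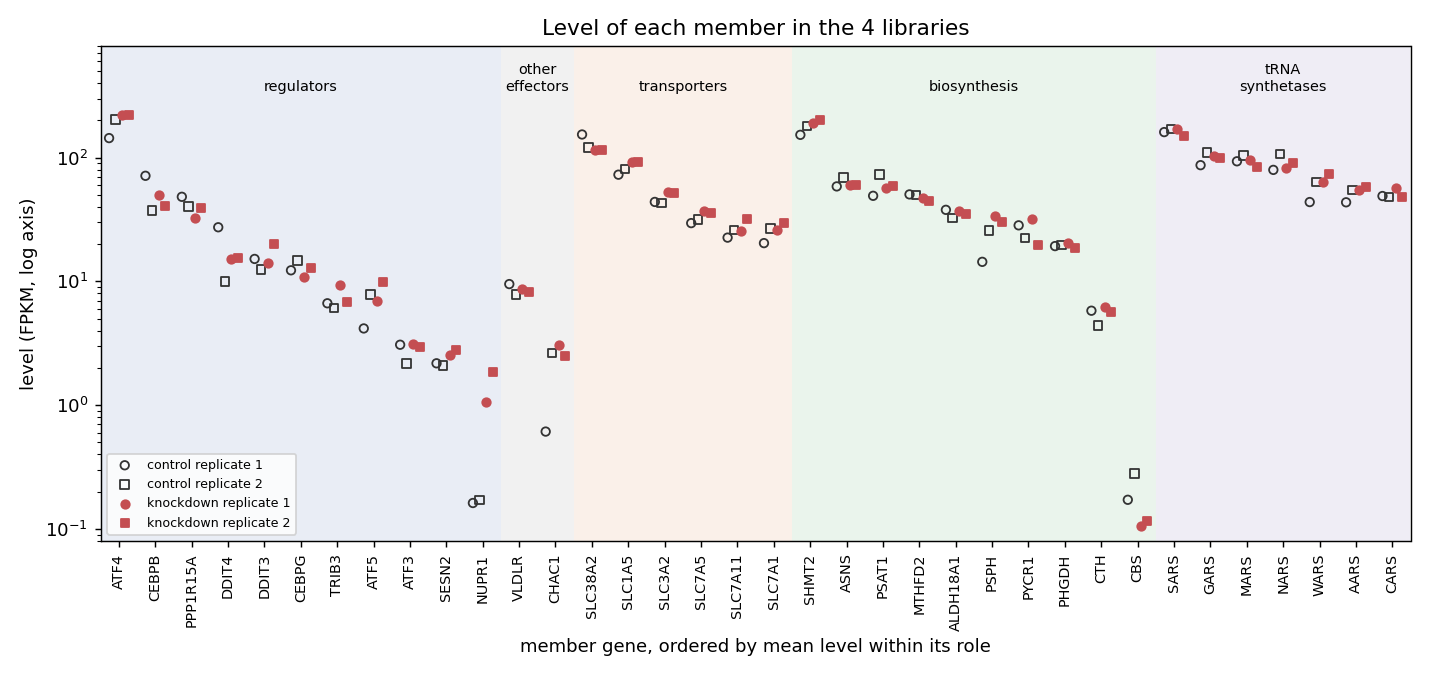
Level of each of the 36 members in the 4 libraries (FPKM, log axis), ordered by mean within each role, with open symbols for control and filled symbols for knockdown libraries. Levels run from ATF4 (144 to 223 FPKM) down to CBS (0.105 to 0.280 FPKM), and only for NUPR1 do the knockdown libraries lie several-fold above both controls.

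FPKM levels are per length and can be compared between genes. ATF4 had the highest mean of all members at 198 FPKM, followed by SHMT2 at 181 and SARS at 163 FPKM. These neighbours do not differ beyond their spread, as the SD of ATF4 in the controls alone was 42 FPKM (n = 2). Most transporters, enzymes and synthetases lay between 19.6 and 127 FPKM. Stress-inducible members spanned a wide range. CEBPB had a mean of 49.7 FPKM, PPP1R15A of 40.2, DDIT4 of 17.0 and DDIT3 of 15.4 FPKM, while TRIB3 had a mean of 7.24 FPKM, ATF5 of 7.20, ATF3 of 2.84, SESN2 of 2.40 and CHAC1 of 2.20 FPKM.

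Among the regulators, ATF4 itself had 144 and 203 FPKM in control cells and 223 and 223 FPKM after knockdown. Both knockdown libraries lay above both controls, and most of the gap came from control replicate 1. The log2 difference was 0.38 ± 0.18 (standard error), with 0.63 in run 1 and 0.13 in run 2 (limma adjusted p = 0.808, and 0.137 with the run). ATF5, a close relative that is likewise controlled in translation, had 4.17 and 7.86 FPKM in control cells and 6.92 and 9.84 FPKM after knockdown. It was higher within each run (0.62 and 0.29), although the groups overlapped (adjusted p = 0.862, and 0.12 with the run).

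NUPR1, a small stress-induced chromatin protein (ENSG00000176046, chromosome 16, 28548606 to 28550495, GRCh37), was the 1 member called. It had 0.162 and 0.171 FPKM in control cells and 1.06 and 1.87 FPKM after knockdown, 8.80-fold higher. Both knockdown libraries were well above both controls. The log2(FPKM + 1) difference was 1.06 ± 0.28, with 0.83 in run 1 and 1.29 in run 2 (adjusted p = 0.546, and 0.0459 with the run). NUPR1 entered the test only through the knockdown libraries, since it was below 1 FPKM in both controls, so a gene that passed this way had to differ. If its transcript spanned the whole locus of 1890 bases, the control values would stand for about 5 and 8 fragments and the knockdown values for 42 and 98, so the fold is imprecise. With the run as a term, the call was lost with a pseudocount of 0.1 (adjusted p = 0.0553) and with no filter on low values (0.172).

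The CHOP arm gave no common direction. DDIT3, the proapoptotic factor CHOP, had 15.2 and 12.5 FPKM in control cells and 14.0 and 19.9 FPKM after knockdown. Only knockdown replicate 2 stood out, and the difference was -0.11 in run 1 and 0.63 in run 2 (adjusted p = 0.896, and 0.422 with the run). DDIT3 shares its locus in the files with MARS, so reads of the 2 genes may not be fully separated. The same limit holds for ATF5, SHMT2, MTHFD2, PYCR1, GARS and WARS, whose loci in the files also hold other genes. TRIB3, a pseudokinase that inhibits ATF4 and CHOP, had 6.66 and 6.09 FPKM against 9.35 and 6.88 FPKM. SESN2, which restrains mTORC1 when leucine is short, had 2.18 and 2.09 FPKM against 2.54 and 2.79 FPKM. Both genes had knockdown values above both controls, by 1.27-fold and 1.25-fold in the means, and neither passed (adjusted p with the run 0.25 and 0.442).

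PPP1R15A, the phosphatase subunit that reverses eIF2alpha phosphorylation, went the other way. Its 48.3 and 40.5 FPKM in the controls were above the 32.8 and 39.2 FPKM of the knockdown libraries, a log2 difference of -0.29 ± 0.16 (adjusted p = 0.823, and 0.229 with the run). The difference was -0.54 in run 1 and -0.05 in run 2. CEBPG, an ATF4 partner, had 12.3 and 14.8 FPKM against 10.9 and 12.9 FPKM, and the groups overlapped.

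3 further regulators were highest in control replicate 1 or unsettled. CEBPB had 71.4 and 37.4 FPKM in control cells and 49.7 and 40.4 FPKM after knockdown. DDIT4 (REDD1), an inhibitor of mTORC1, had 27.4 and 10.0 FPKM against 15.2 and 15.4 FPKM. Control replicate 1 alone was high for both. Without it the log2 differences turned from -0.20 to 0.25 and from -0.12 to 0.56. That library also had the highest inflammatory and immediate early levels, given above, and their part in these values was not tested. ATF3 had 3.08 and 2.18 FPKM against 3.10 and 2.98 FPKM, with overlapping groups.

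Of the other effectors, CHAC1, which degrades glutathione, had 0.612 and 2.65 FPKM in control cells and 3.04 and 2.50 FPKM after knockdown. Its mean difference of 0.63 ± 0.41 rests on control replicate 1: the run differences were 1.33 and -0.06 (adjusted p = 0.857, and 0.283 with the run). VLDLR, a lipoprotein receptor, had 9.52 and 7.82 FPKM against 8.67 and 8.21 FPKM.

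**Figure D2:**
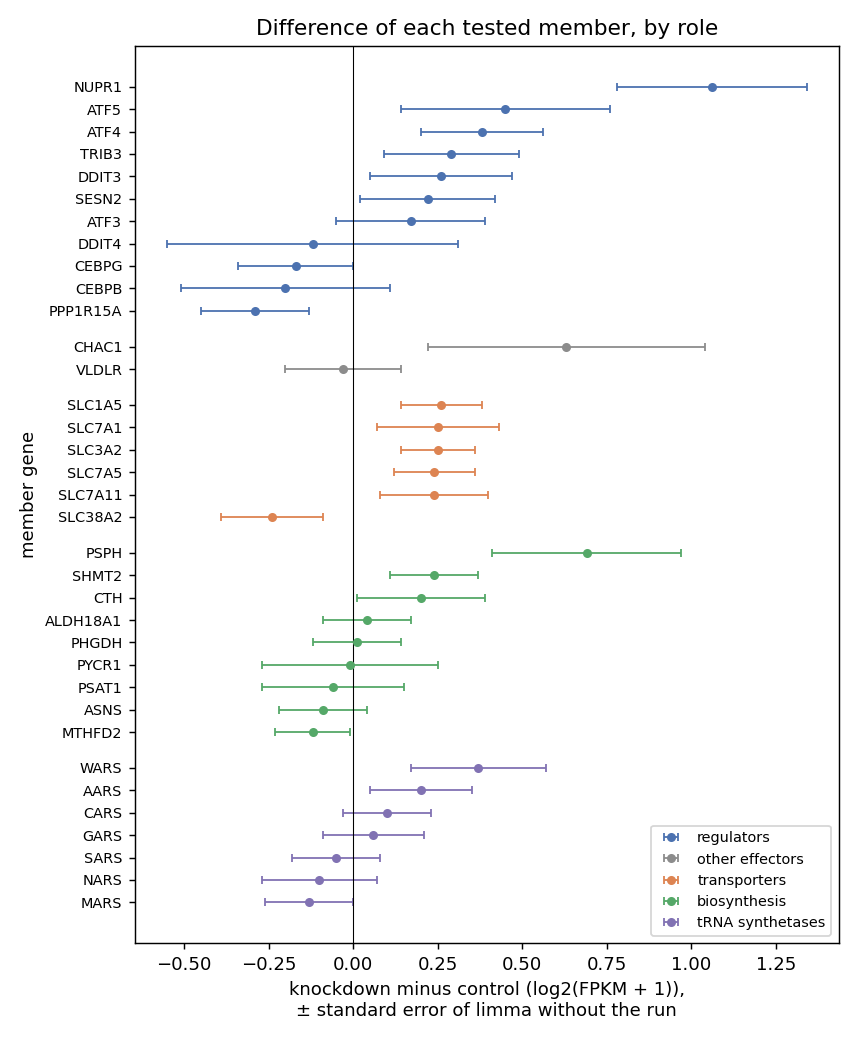
Difference between knockdown and control for the 35 tested members, on the log2(FPKM + 1) scale, grouped by role, with bars of 1 standard error from limma without the run. Of the 6 transporters, 5 sit between 0.24 and 0.26 and SLC38A2 at -0.24, while the synthetases run from -0.13 to 0.37.

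Of the 6 transporters 5 were higher in the knockdown in both runs (83.3%, against 35.3% of all genes), by 0.24 to 0.26 on the log2 scale, and SLC38A2 was lower. The direction was not particular to the members. Of 15 tested other amino acid transporters, a list given below, 9 were higher in both runs (60%) and 3 lower in both (20%). The group median was 0.24 (0.28 in run 1, 0.17 in run 2). The close values of the 5 do not hold without single libraries: without control replicate 1, SLC7A1 was at 0.05 and SLC7A11 at 0.14, and without knockdown replicate 2 SLC7A11 was at 0.08 and SLC7A1 at 0.15. SLC3A2, the heavy chain CD98 shared by several amino acid exchangers, had 43.9 and 43.2 FPKM in control cells and 52.7 and 51.4 FPKM after knockdown. The control pair and the knockdown pair each agreed closely, 43.6 ± 0.51 against 52.0 ± 0.91 FPKM (SD, n = 2 each), 1.19-fold higher. The run differences were 0.26 and 0.25.

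SLC3A2 pairs with light chains that were also members. SLC7A5 (LAT1), which imports leucine and other large neutral amino acids, had 29.6 and 31.6 FPKM against 36.9 and 35.6 FPKM. SLC7A11 (xCT), the cystine importer, had 22.6 and 26.0 FPKM against 25.8 and 32.2 FPKM, with overlapping groups. All 3 subunits thus had means 1.19-fold above the control means.

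SLC1A5 (ASCT2), a glutamine transporter, had 72.9 and 81.0 FPKM in control cells and 92.7 and 91.5 FPKM after knockdown. SLC7A1 (CAT1), the arginine and lysine importer, had 20.4 and 26.8 FPKM against 26.1 and 29.9 FPKM. The groups were separate for the first gene and overlapped for the second. None of the 6 transporters passed. The 5 higher members had unadjusted p of 0.017 (SLC3A2), 0.0175 (SLC1A5), 0.0317 (SLC7A5), 0.0352 (SLC7A11) and 0.0377 (SLC7A1) with the run as a term, and adjusted p of 0.138 to 0.199. Without the run, adjusted p was 0.791 to 0.872 over the 6 in limma.

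SLC38A2 (SNAT2), a sodium-coupled importer of small neutral amino acids and a classic amino acid response gene, stood against the others. It had 154 and 121 FPKM in control cells and 115 and 116 FPKM after knockdown, a log2 difference of -0.24 ± 0.15. Control replicate 1 was the high library, and the run differences were -0.42 and -0.06 (adjusted p = 0.854, and 0.229 with the run). The count of 5 of 6 transporters above 0 was the same when each library was left out in turn. This was largely fixed in advance. The groups did not overlap for SLC3A2, SLC7A5, SLC1A5 and SLC38A2, so only SLC7A11 and SLC7A1 could have turned sign.

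The biosynthetic enzymes centred on 0, with a median of 0.01 over 9 tested members (0.09 in run 1, -0.07 in run 2). ASNS, asparagine synthetase and the textbook ATF4 target, had 58.6 and 69.4 FPKM in control cells and 59.8 and 60.2 FPKM after knockdown. Its groups overlapped (log2 -0.09 ± 0.13, adjusted p = 0.952, and 0.613 with the run).

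The serine pathway, which turns a glycolytic intermediate into serine in 3 steps, did not move as a unit. PHGDH, the first enzyme, had 19.3 and 19.7 FPKM against 20.5 and 18.8 FPKM. PSAT1, the second, had 49.2 and 73.4 FPKM against 56.5 and 58.6 FPKM, with control replicate 2 the highest. PSPH, the last, had 14.4 and 25.9 FPKM in control cells and 33.8 and 30.3 FPKM after knockdown. Both knockdown libraries lay above both controls, by 1.59-fold in the means. PSPH had the largest difference among the enzymes, 0.69 ± 0.28, with 1.17 in run 1 and 0.22 in run 2 (adjusted p = 0.778, and 0.112 with the run). Without control replicate 1, the library with its lowest value, the log2 difference for PSPH was 0.29.

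Downstream of serine, SHMT2 and MTHFD2, the mitochondrial folate enzymes that make one-carbon units, lay on opposite sides. SHMT2 had 153 and 179.8 FPKM in control cells and 189.5 and 202 FPKM after knockdown (log2 0.24 ± 0.13, adjusted p = 0.836, and 0.153 with the run). MTHFD2 had 50.2 ± 0.32 FPKM in control cells (SD, n = 2) against 47.2 and 45.0 FPKM (log2 -0.12 ± 0.11, adjusted p = 0.916, and 0.422 with the run). In neither gene did the groups overlap.

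Of the enzymes of cysteine and proline synthesis, none separated the groups among those tested. CTH, which releases cysteine from cystathionine, had 5.80 and 4.39 FPKM against 6.24 and 5.67 FPKM. CBS, the enzyme before it, was nearly silent at 0.172 and 0.280 FPKM in control cells and 0.105 and 0.115 FPKM after knockdown. ALDH18A1, which starts proline synthesis, had 37.9 and 32.5 FPKM against 37.0 and 35.2 FPKM. PYCR1, which completes it, followed the run rather than the group, with 28.4 and 32.2 FPKM in the replicate 1 libraries and 22.4 and 19.6 FPKM in the replicate 2 libraries.

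The 7 tRNA synthetases had a median of 0.06, with 0.20 in run 1 and -0.13 in run 2, and 0 passed in either fit (1 at an unadjusted p under 0.05 with the run, WARS). WARS, which charges tRNA with tryptophan and is also known as an interferon-induced gene, had 43.8 and 63.5 FPKM in control cells and 63.5 and 73.6 FPKM after knockdown. The highest control and the lowest knockdown library were nearly equal, at 63.47 against 63.55 FPKM. Its log2 difference was 0.37 ± 0.20, with 0.53 in run 1 and 0.21 in run 2 (adjusted p = 0.84, and 0.0954 with the run). Without control replicate 1, the library with the lowest WARS value, the difference was 0.11.

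AARS, the alanine enzyme, had 43.6 and 54.6 FPKM against 54.8 and 58.0 FPKM, again with groups that nearly touch. Its log2 difference was 0.20, and 0.04 without control replicate 1. GARS, SARS, MARS, NARS and CARS, for glycine, serine, methionine, asparagine and cysteine, had log2 differences of 0.06, -0.05, -0.13, -0.10 and 0.10. In each of these 5 genes the groups overlapped. SARS had 161 and 171 FPKM in control cells and 172 and 149 FPKM after knockdown. For the first 4 of the 5 the difference was above 0 in run 1 and below 0 in run 2.

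**Figure D3:**
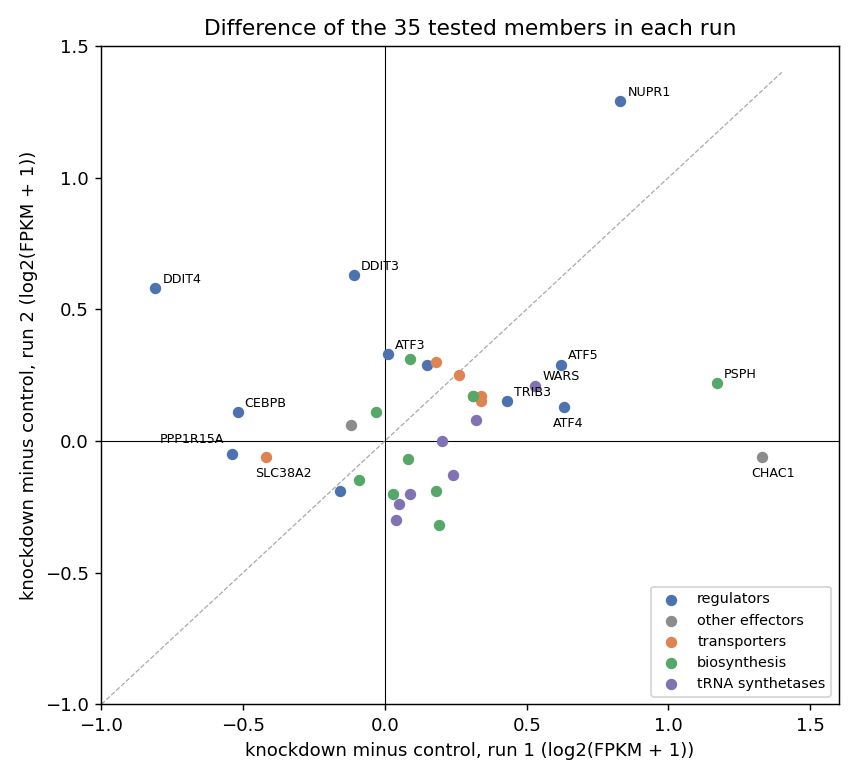
Difference between knockdown and control in run 1 (x axis) against run 2 (y axis) for the 35 tested members, on the log2(FPKM + 1) scale, with colours for roles and a dashed line of equality. NUPR1 lies high in both runs, 5 transporters sit close together above 0 in both, and CHAC1 (1.33 and -0.06) and DDIT4 (-0.81 and 0.58) differ between the runs.

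At the level of transcripts, 30 of the tested members had several annotated transcripts, and 61 transcripts made up at least 10% of their gene. Of these 18 were higher in both knockdown libraries than in both controls (29.5%, against 17.3% of 23379 transcripts chosen in the same way) and 8 lower (13.1%, against 15.7%). Transcript values are the authors' estimates and split reads between overlapping isoforms, so single values are less certain than gene sums. The following were chosen after their values were seen. SHMT2 had 1 transcript, ENST00000414700, at 39.3 and 39.3 FPKM in control cells and 63.2 and 53.2 FPKM after knockdown. Another, ENST00000328923, was at 35.2 and 36 against 33.8 and 33.7 FPKM. The higher gene sum of SHMT2 was therefore not shared by all its transcripts. CEBPG showed a split of the same kind. ENST00000585933 had 6.03 and 6.48 FPKM in control cells and 3.93 and 3.94 FPKM after knockdown, while ENST00000284000 had 6.28 and 8.34 against 6.99 and 8.94 FPKM. For PSPH, ENST00000421312 went from 1.51 and 1.69 FPKM in the controls to 6.26 and 4.38 FPKM in the knockdown, and the main transcript, ENST00000395471, from 6.52 and 9.81 to 11.4 and 11.9 FPKM. For SLC3A2 and SLC7A5, each of the 2 transcripts above the 10% share lay higher in both knockdown libraries. Among the 8 lower were the main transcripts of MARS, NARS, MTHFD2, PPP1R15A and SLC38A2. That of MARS, ENST00000262027, had 80.6 and 90.4 FPKM in control cells and 77.9 and 71.2 FPKM after knockdown, although its gene sums overlapped.

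The wider pathway was read from 8 further lists with 137 genes, of which 127 were tested. With the run as a term 4 passed (3.15%, against 3.44% of all genes), 2 higher and 2 lower. Without it 0 passed, with 9 at an unadjusted p under 0.05, against 6.37% of all genes. Counts at an unadjusted p under 0.05 with the run, given for single lists below, stand beside 22.1% of all genes. Among the eIF2alpha kinases and eIF2 subunits 0 of 15 passed (1 at an unadjusted p under 0.05 with the run, EIF2S1), and the list median was -0.00. EIF2S1, eIF2alpha itself, had 60.4 and 77.9 FPKM in control cells and 49.7 and 60.0 FPKM after knockdown (adjusted p with the run 0.0791). EIF2B1, a subunit of its exchange factor, had 34.6 and 43.2 FPKM against 39.7 and 49.0 FPKM.

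The largest change among the synthetases was in a gene outside the members. IARS, isoleucyl-tRNA synthetase (ENSG00000196305, chromosome 9, 94972489 to 95056038, GRCh37), had 95.4 and 129 FPKM in control cells and 47.6 and 61.5 FPKM after knockdown, 2.06-fold lower. Both knockdown libraries were far below both controls, and the fall was -0.99 and -1.06 in the 2 runs (adjusted p = 0.44, and 0.00283 with the run as a term). The other 15 cytosolic synthetases and scaffold proteins of that list did not pass. AIMP2, a scaffold of the multisynthetase complex, had the highest difference (13.4 and 17.6 against 15.7 and 20.9 FPKM). Of 17 mitochondrial synthetases 0 passed (4 at an unadjusted p under 0.05 with the run). SARS2 had 8.21 and 8.12 against 11.4 and 10.7 FPKM, and PARS2 had 4.95 and 4.17 against 3.52 and 3.26 FPKM.

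Among 15 tested other amino acid transporters, SLC38A9, the lysosomal arginine sensor of mTORC1, rose with the run as a term. It had 9.33 and 12 FPKM in control cells and 14.6 and 19.6 FPKM after knockdown, 1.6-fold higher (adjusted p = 0.668, and 0.0314 with the run). SLC6A9, a glycine transporter, had the largest difference, 2.07 and 2.96 against 5.91 and 4.13 FPKM (adjusted p with the run 0.0954). The lowest was SLC7A2 at 6.07 and 4.91 against 4.04 and 3.56 FPKM. Of 24 tested enzymes of folate and amino acid metabolism, ODC1, which makes polyamines from ornithine, fell in the fit with the run (56.7 and 91.8 to 21.0 and 34.5 FPKM, adjusted p = 0.529, and 0.00117 with the run).

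Of 14 endoplasmic reticulum stress genes listed apart from the members, 11 were higher in both runs (78.6%, against 35.3% of all genes). Whether ATF4 also acts on these genes was not tested, so the list is no comparison independent of ATF4. Like the others, it was chosen with earlier results of these data known. HERPUD1, which helps clear misfolded proteins from that compartment, rose in the fit with the run (23.0 and 21.5 to 31.1 and 32.9 FPKM, limma adjusted p = 0.537, and 0.0405 with the run). DNAJB9 had the highest difference (6.17 and 5.0 against 8.75 and 9.30 FPKM) and SDF2L1 the lowest (21.3 and 14.6 against 14.0 and 14.2 FPKM). The list median was 0.14, beside 0.17 for the members. Among the glutathione genes 0 of 8 passed (2 at an unadjusted p under 0.05 with the run), with CHAC2 at 10.1 and 19.1 against 14.6 and 21.0 FPKM and GSR at 37.8 and 34.6 against 30.0 and 30.8 FPKM.

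Of 18 tested further ATF4 partners and targets 0 passed (4 at an unadjusted p under 0.05 with the run). TXNIP, which inhibits thioredoxin and glucose uptake, had 289 and 24.3 FPKM in control cells and 34.3 and 12.4 FPKM after knockdown, with control replicate 1 far above the rest (adjusted p with the run 0.0546). SESN3, a relative of SESN2, had 9.12 and 6.86 FPKM against 4.15 and 4.48 FPKM (adjusted p with the run 0.0521), opposite in direction to SESN2. STC2, the secreted stanniocalcin that ATF4 is known to induce, had 0.318 and 1.05 against 1.11 and 1.17 FPKM.

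**Figure D4:**
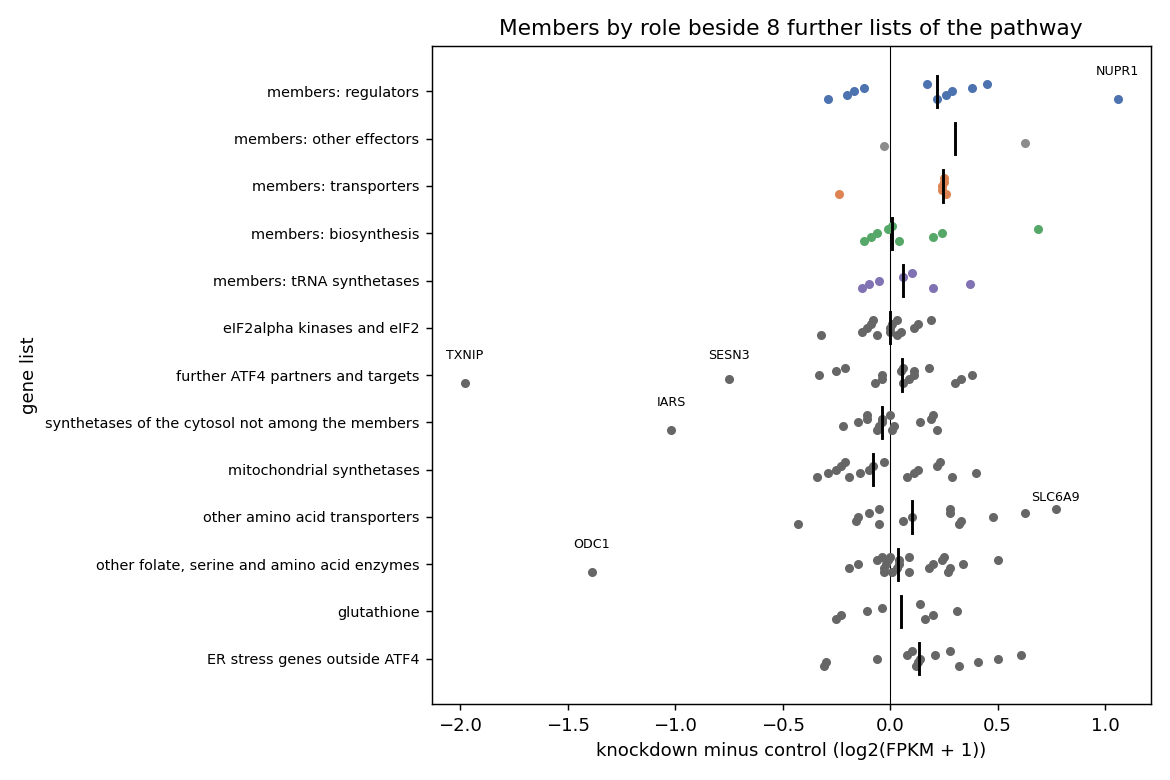
Difference between knockdown and control (log2(FPKM + 1)) for each tested gene, 1 row per list, with the members by role on top and 8 further lists below; points are genes, spread vertically for visibility, and black bars are list medians. IARS at -1.02 and ODC1 at -1.39 lie far below the rest of their lists, and TXNIP lies at -1.98, with 289 FPKM in control replicate 1 and 12.4 to 34.3 FPKM in the other libraries.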

How the data were processed

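Each of the 4 files deposited by the authors lists 81493 transcripts with 1 value apiece, which was taken as FPKM from the values themselves, since the headers name no unit. Tools listed in the notes of the submitters are HTSeq 0.8.0 and bcl2fastq 2.19, with the build hg38. The sources used here do not give the program behind the FPKM values or any use of strand. Loci in the files have GRCh37 coordinates with the start counted from 0, and are printed 1-based. The 81412 transcripts found in all 4 tables were summed to genes, which cost no member a transcript.

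A limma-trend model (limma 3.58.1, R 4.3.3) was fitted to log2(FPKM + 1) of the 12136 genes that reached 1 FPKM in 2 or more libraries, two-sided, with Benjamini-Hochberg adjustment over all of them and a threshold of 0.05. Differences on this scale understate those of low genes. The main fit has the group alone, and the fit with the replicate number (called the run, as inferred from the files) as a term is printed beside it. Samples of the same number deviated together: the difference between replicates 1 and 2 correlated across genes between control and knockdown (r = 0.65, over 12136 genes, which are not independent). Folds are ratios of mean FPKM. Rough depths come from the value of 1 fragment in long genes with 1 transcript (GENCODE 29 lengths). The scripts were tested on simulated data. Alternatives were another pseudocount, other filters and scalings, and leaving out each library.

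The members and lists were chosen with earlier results of these data known. All members are named, as are, in each further list, the genes that passed and those with the largest difference each way, except 1 that is not reported here. JHDM1D was not found by that symbol. Promoter windows are RefSeq's (GRCh38.p14), matched through gene IDs and current symbols.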

Additional observations from a re-analysis of the deposited data

How the results depend on the processing

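Without the run, limma called 0 genes, also with a pseudocount of 0.1 or no filter, 1 with at least 5 FPKM in 2 libraries, 3 with median-of-ratios and 2 with upper-quartile scaling, and 6 to 14 when each library was left out in turn (a lone library is then assumed to vary like the other group). The replicate block, that is the run as a term, gave 417 genes and 1 member. With the block it was 896 genes and 2 members (NUPR1 and PSPH) with median-of-ratios scaling, 890 genes and 2 members with upper-quartile scaling, 287 genes and 0 members with a pseudocount of 0.1, 424 and 0 at 5 FPKM, and 0 and 0 with no filter. Members called stayed at 0 in each setting without the block. At 5 FPKM, NUPR1 is not among the genes tested. With 2 pairs the block cannot separate the run from any other feature that a replicate number shares.

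AURKA did not pass in the main fit (-2.22, limma adjusted p = 0.0819). Nor did it pass with a pseudocount of 0.1 (0.0636), no filter (0.501), a filter at 5 FPKM (0.0768) or the block with no filter (0.0952). It passed with the block (-2.22), median-of-ratios (-2.24) and upper-quartile scaling (-2.23), and their combinations with the block (-2.24 and -2.23). The block with a pseudocount of 0.1 (-2.27) or a filter at 5 FPKM (-2.22) also gave a call. Without any 1 library the AURKA difference was -2.38 to -2.06. Of 515 member values under alternatives 492 kept direction and side of the threshold, 5 gained a call and 18 turned sign, 16 of them by leaving out a library. Much of this sameness was fixed in advance. The block and the filters leave each difference as it is, so by themselves they could not turn a sign. No member passed in the main fit, so none could lose a call. Leaving out a library could not turn the sign of a member whose groups did not overlap. PHGDH was at -0.01 with median-of-ratios scaling, with and without the block. Leaving out 1 library gave ranges that cross 0 for PHGDH (-0.05 to 0.07), CEBPB (-0.66 to 0.25), DDIT4 (-0.80 to 0.56), VLDLR (-0.16 to 0.10), PYCR1 (-0.35 to 0.34), GARS (-0.11 to 0.22), ATF3 (-0.01 to 0.35), ASNS (-0.21 to 0.03), PSAT1 (-0.35 to 0.22), ALDH18A1 (-0.07 to 0.15), NARS (-0.31 to 0.12), CARS (-0.01 to 0.21) and SARS (-0.16 to 0.05). The cause was not tested. The members' median was 0.06 at 5 FPKM and 0.07 to 0.13 without 1 library, and that of the transporters 0.16 to 0.31. The numbers of members and of transporters above 0 under each setting were added after seeing the data: 18 of 31 members at 5 FPKM, 24 of 35 without control replicate 1, 23 of 35 without control replicate 2, 19 of 34 without knockdown replicate 1 and 24 of 34 without knockdown replicate 2. Of the transporters, 5 of 6 lay above 0 without any 1 library, where only SLC7A11 and SLC7A1, with overlapping groups, could have turned sign. The block and the filters leave each difference as it is, so they do not bear on that count.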
